A study of Mus musculus with 6 samples.

Results

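Exonic adenosine-to-inosine editing outside 3' untranslated regions was followed at 240 sites of the mouse fetal liver transcriptome. The sites were those that the deposited site table places in a codon with a changed residue (Nonsyn, 83 sites), a codon with the same residue (Syn, 25), a 5' untranslated region (5UTR, 26), a noncoding RNA (ncRNA, 89, and ncRNA_exonic, 10) or another exon (exonic, 7). A site was kept where at least 10 reads covered it in wild type and at least 10 in the mutant, summed over the libraries of each genotype. This held for 240 of the 284 sites with these labels. The 44 others had 64 edited of 207 reads in wild type and 43 of 231 in E861A. Just inside the minimum was a 5UTR site of transcript uc012esg.1 with 10 wild-type reads (1 edited) and 27 E861A reads (4 edited), and just outside was a site in Zfp455 with 9 (3 edited) and 20 (0 edited). The table lists 6012 sites of any label, and 3883 of them met the same minimum. The 240 sites carry 86 gene names and lie on 20 chromosomes, 8 of them on the X chromosome.

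Whole livers of C57BL/6 embryos at embryonic day 12.5 were dispersed, and their total RNA was sequenced. The wild-type libraries came from liver 2, a male, and livers 15 and 17, both female. The mutant libraries came from livers 6, 16 and 19, all male, homozygous for the E861A allele of Adar1 (genotype Adar1E861A/E861A). The allele is carried in the germline by every cell of the embryo, the labels name no litter, and sex is partly tied to genotype.

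ADAR1, encoded by Adar, turns adenosine into inosine where RNA is double-stranded, and sequencing reads inosine as G. E861A replaces a glutamate of its catalytic centre. ADAR2, encoded by Adarb1, is another active editing enzyme, and the glutamine-to-arginine site of Flna is known as its substrate. Most editing in mammals falls in inverted repeats of introns and 3' ends, whereas editing in a codon can change a residue and is called recoding.

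The sites around which the results turn are shown with 14 bases on each side, read from NCBIM37 on the edited strand, with the edited base in capitals. The first 3 are the Nonsyn sites that fell in the mutant.
Blcap Y2C, chr2:157383871-157383899, minus strand: ggcagagatcatgtAttgcctccagtggc
Cdk13 Q103R, chr13:17896164-17896192, minus strand: ccccggagggcggcAgaagcggcgccgcg
Gtf3c2 T199A, chr5:31475839-31475867, minus strand: caggttggcctcgaActtgcgatcctccc
The Flna site gained edited reads in the mutant.
Flna Q2341R, chrX:71472187-71472215, minus strand: tgtttctagtcttcAggtgaggcactgag
A further 3 recoding sites were read as edited in both genotypes, with no change past the threshold used below.
Cog3 I635V, chr14:76119512-76119540, minus strand: tcaccattaaggaaAtttccctggacctc
Copa I164V, chr1:174022465-174022493, plus strand: tccgcgtttgggatAtttctggtgagcta
Igfbp7 K95R, chr5:77836742-77836770, minus strand: ccgcaagaggcggaAgggtaaagccgggg
The noncoding sites below all lost edited reads, and the first 4 carry the edited base in a run of related letters.
D030028A08Rik, chr11:96826272-96826300, plus strand: tggcacacgcctttAatctcagcacatgg
9830144P21Rik, chr2:129048966-129048994, minus strand: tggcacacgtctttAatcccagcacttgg
uc008btg.1, chr17:29791199-29791227, minus strand: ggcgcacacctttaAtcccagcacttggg
uc012aji.1, chr17:6123002-6123030, plus strand: aaagaaaatactttAatcccaaacacttg
Gm16736, chr17:46636860-46636888, plus strand: caaggcctcctaatAgtgcgattccctgg
Mir3061, chr11:51940294-51940322, plus strand: tttgagctaaggctAcctttgatagtcca
The last of these falls inside a mature microRNA, shown from RefSeq (GRCm38.p6) with its seed, bases 2 to 8, in capitals.
mmu-miR-3061-3p: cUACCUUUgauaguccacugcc

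Libraries held 35280460 to 43733715 reads in genes, and 29621 to 42365 reads covered the 240 sites. Median coverage of a site was 47 to 70 reads in the 6 libraries. Adar RNA itself was higher in the mutant, with 57 to 79 CPM (counts scaled to a common library size) in wild type and 275 to 344 in E861A, so the transcript is present in livers of both genotypes. Hepatoblast markers (Alb, Afp, Ttr, Apoa1) and erythroid markers (Klf1, Slc4a1, Hba-a1, Epb4.2) were abundant, and of the markers of other tissues Ins2 (pancreas) had 1 read in all libraries and Syn1 (neurons) and Myh6 (heart) lay below 1 CPM in each. Gfap, a marker of astrocytes, was at 23.5 to 35.4 CPM in wild type and 5.70 to 7.73 in E861A (log2 fold change -2.11 ± 0.21 SE, edgeR adjusted p = 0.000637). Of the erythroid markers 3 of 4 fell in E861A and 0 of 4 hepatoblast markers changed (edgeR quasi-likelihood test, adjusted p under 0.05). Of 3 macrophage markers 1 rose and 1 fell, of 3 endothelial markers 1 rose, and 0 of 3 mesenchymal markers changed. By the same test 7.77% of all 16511 genes rose and 4.26% fell. Summed erythroid levels were 8599 to 23490 CPM in wild type and 7325 to 9091 in E861A. Among wild-type livers each erythroid marker was lowest in liver 2, the only male, and all mutant livers are male. With sex as a covariate 0.236% of all genes fell, and the part of sex in the marker changes was not tested. In whole livers, fewer cells of a type and less RNA per cell cannot be told apart. The part of the erythroid shift in the editing levels was not tested.

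Editing fell in the mutant at 22 of the 240 sites and rose at 2, by Fisher's exact test (two-sided) of edited against unedited reads pooled by genotype, adjusted by Benjamini-Hochberg over all 3883 sites. Over all sites tested, 16.7% fell and 0.155% rose. Noncoding RNA held most of the losses: 16 of 89 ncRNA sites and 1 of 10 ncRNA_exonic sites fell. Among the 83 Nonsyn sites 3 fell and 2 rose, among the 7 exonic sites 2 fell, and none of the 25 Syn or 26 5UTR sites passed. In comparison, 422 of 1688 3UTR sites (25%), 113 of 1485 intronic sites (7.61%) and 79 of 444 intergenic sites (17.8%) fell. At an unadjusted p under 0.05, 29 of the 240 sites were lower and 4 higher.

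The summed test treats reads as independent, so its p-values leave out the spread between livers. A quasi-binomial test across the 6 libraries, in which the livers are the replicates and 4 degrees of freedom remain, called 0 of the 240 sites after adjustment and 0 of all 3883. At an unadjusted p under 0.05 the same test had 21 of the 240 sites lower and 1 higher. With each site's dispersion held at or above the common value of 1.88, an alternative chosen after seeing the data, 9 sites fell and 1 rose. Over all 3883 sites, 9.89% fell and 0.0258% rose. This alternative pools degrees of freedom over 3873 sites, where the test above leaves 4. A site's own dispersion is thus taken as known, and the spread between livers is not fully counted. In the libraries themselves, all 3 wild-type levels lay above all 3 E861A levels at 19 of the 22 sites that fell. Over the 240 sites this ordering held at 27 (11.2%) and the opposite at 3 (1.25%), and over 3746 tested sites with a level in every library it held at 20.8% and 0.374%. The authors' deposited table gives an analysis of variance p-value for 139 of the 240, and 10 of these are under 0.05, among them 0.00311 for Blcap and 0.0477 for Flna at the sites shown above.

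**Figure D1:**
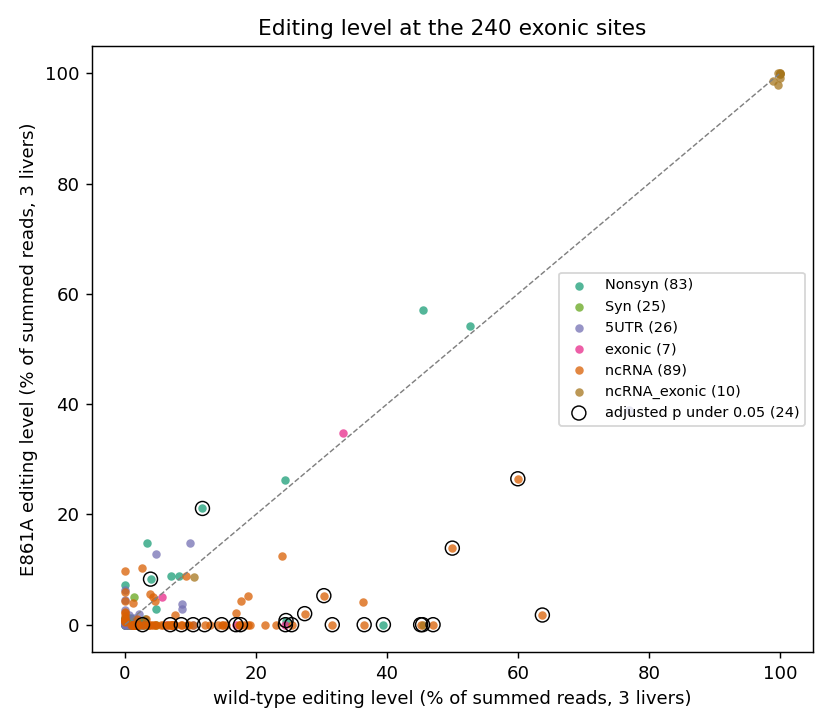
Editing level in E861A (y axis, percent of summed reads) against wild type (x axis) for the 240 sites, coloured by label; circles mark the 24 sites past the threshold and the dashed line marks equal levels. Most circled sites lie on or close to the x axis, 16 of them at 0 in E861A, while the 8 sites near 100% lie on the line of equal levels.

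Of the 6 labels that make up the 240 sites, ncRNA had the largest change in mean level. Noncoding sites (ncRNA) averaged 8.43, 12.3 and 12.6% edited in wild type 2, 15 and 17. In E861A 6, 16 and 19 they averaged 1.62, 1.22 and 1.96%. The groups did not overlap, and the difference in means of -9.50 percentage points had an exact permutation p of 0.1, the smallest that 3 libraries against 3 can give (0.157 adjusted over 11 such comparisons). Nonsyn sites averaged 2.64, 3.71 and 1.82% in wild type and 1.42, 3.71 and 3.21% in E861A. These overlapped, with a difference of 0.061 points (exact permutation p = 0.9). Syn sites averaged 0.45 ± 0.30% in wild type and 0.44 ± 0.25% in E861A (SD, n = 3), an exact permutation p of 0.9. The mean over all 240 sites was 9.16, 10.1 and 9.39% in wild type and 5.40, 5.75 and 5.56% in E861A, a difference of -3.99 points. The 3UTR sites changed by -5.78 points, and the change at the 240 sites was 1.79 points smaller (exact permutation p = 0.1). Sites of both groups carry marks that go with detection in wild type, described below, and the part of these marks in the gap was not tested. This gap was 2.81 points with a coverage minimum of 50, 2.76 without wild type 2 and 5.004 when weighted by coverage, and the mean over the sites themselves changed by -2.03 points with a minimum of 50. When sites were weighted by coverage, the mean over the 240 sites was instead 1.04 points higher in E861A. The 4 Gm16589 sites described below gave 3000 of the 6856 edited reads of wild type and 3805 of the 6872 of E861A. The single Slc39a7 site, also described below, gave 543 of the 2713 edited reads of wild type 2 and 665 of the 3238 of E861A 6. The part of these sites in the weighted change was not tested.

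**Figure D2:**
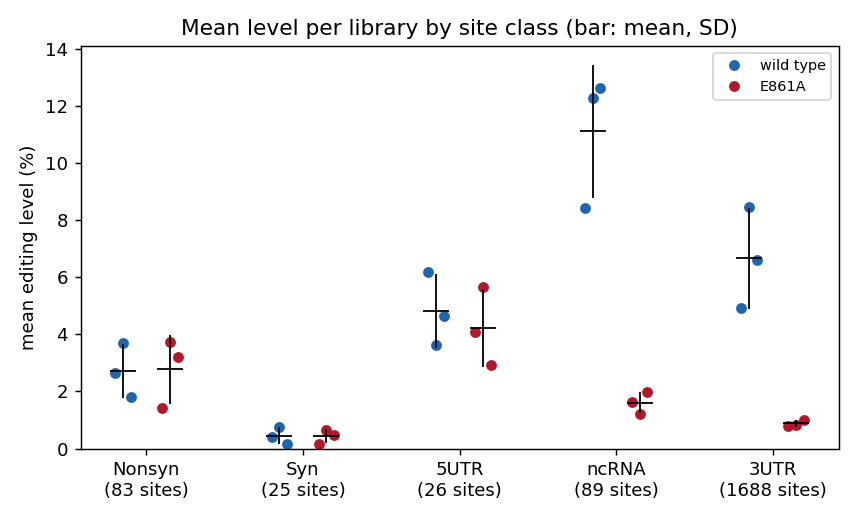
Mean editing level per library (y axis, percent) by label, with 3UTR sites for comparison; blue points are wild-type and red points E861A livers, and bars give the mean and SD of 3. The ncRNA and 3UTR points of the genotypes are apart, whereas the Nonsyn, Syn and 5UTR points overlap.

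Coding sites numbered 108, counting Nonsyn and Syn together, and 78 of them had under 1% of reads with G in both genotypes. The rate of sequencing error was not measured here, so editing and error cannot be told apart at such levels. Only 12 sites in 10 genes reached 5% in either genotype. Of these 12, the sites of Blcap and Cdk13 fell, the site of Flna and 1 other rose, and the other 8 passed in neither direction. In GENCODE M1 a codon was found for 80 of the 83 Nonsyn sites, and reading G in place of A changes the residue at 79 of these. The change is silent at all 25 Syn sites. Over all 240 sites, GENCODE M1 places 110 in coding sequence, 61 in noncoding exons, 20 in introns, 16 in 3' and 9 in 5' untranslated regions and 24 outside any gene on the edited strand.

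Blcap encodes a small membrane protein whose start region is a known editing substrate. At its Y2C site, tyrosine to cysteine at residue 2 (chr2:157383885), edited reads were 21 of 68, 13 of 53 and 12 of 66 in wild type 2, 15 and 17. In E861A 6, 16 and 19 they were 0 of 50, 0 of 37 and 1 of 46. Every wild-type liver was above every mutant liver. The level went from 24.6% (Wilson 95% interval 19 to 31.2) to 0.752% (0.133 to 4.14), with a Fisher's exact adjusted p of 8.81e-10. Leaving out any 1 library kept the Fisher's exact adjusted p at or below 3.33e-06. Among male livers alone, with 1 wild-type liver, the difference was -30.1 points. The quasi-binomial test across libraries gave an adjusted p of 0.116. Nearby lie 2 further Blcap sites in the same exon. The Q5R site (chr2:157383876) had 9 edited of 191 wild-type reads and 4 of 138 E861A reads, 4.71% against 2.90%, and did not pass (Fisher's exact adjusted p = 0.809). The K15R site (chr2:157383846) had 5 of 217 and 0 of 184, and did not pass either (0.244). Blcap RNA was at 16.7 ± 2.05 CPM in wild type and 17.7 ± 1.97 in E861A (SD, n = 3).

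Cdk13 encodes a cyclin-dependent kinase that phosphorylates RNA polymerase II. Its Q103R site (chr13:17896178) had 8 of 19, 3 of 8 and 4 of 11 edited reads in wild type and 0 of 8, 0 of 1 and 0 of 6 in E861A. The wild-type livers lay close together, at 36.4 to 42.1%. Only 15 E861A reads stand behind the level of 0, so that 3 edited reads would have been 20%. The Fisher's exact adjusted p was 0.0317, and 0.0528 without wild type 2.

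Gtf3c2 encodes a subunit of transcription factor TFIIIC and carries the T199A site (chr5:31475853), listed under transcript uc008wxi.1. Edited reads were 3 of 125, 2 of 127 and 5 of 120 in wild type and 0 of 58, 0 of 93 and 0 of 119 in E861A. The groups did not overlap, at 2.69% against 0, where 3 edited reads would be 1.11%. The Fisher's exact adjusted p of 0.0399 rose above the threshold when wild type 17 (0.124), E861A 6 (0.104), E861A 16 (0.179) or E861A 19 (0.306) was left out.

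Flna encodes filamin A, which crosslinks actin filaments, and was edited more in the mutant. At its Q2341R site (chrX:71472201) edited reads were 22 of 677, 21 of 453 and 20 of 482 in wild type. In E861A they were 41 of 554, 31 of 523 and 82 of 787. All 3 mutant livers were above all 3 wild-type livers. The level went from 3.91% (3.07 to 4.97) to 8.26% (7.10 to 9.60), a difference of 4.35 points (95% interval 2.78 to 5.93, Fisher's exact adjusted p = 1.72e-06). Without any 1 library the adjusted p stayed at or below 0.0135. Flna RNA was at 588 ± 37.6 CPM in wild type and 515 ± 188 in E861A (SD, n = 3), and did not pass the edgeR test (adjusted p = 0.703).

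Cog3, Copa and Igfbp7 were among the most edited coding sites and passed in neither direction. Cog3, a subunit of a Golgi tethering complex, had 30 of 83, 17 of 104 and 23 of 100 edited reads at I635V (chr14:76119526) in wild type. In E861A it had 17 of 84, 25 of 81 and 30 of 110. The groups overlapped throughout, at 24.4 and 26.2%, with a 95% interval of the difference from -5.38 to 8.97 points. The adjoining silent site E634E (chr14:76119527) had 4 of 285 edited wild-type reads and 14 of 274 E861A reads, 7 each in livers 16 and 19 and 0 in liver 6 (Fisher's exact adjusted p = 0.0828). Copa, the alpha subunit of coatomer, had 8.28% at I164V (chr1:174022479) in wild type and 8.91% in E861A, with a difference of -1.97 to 3.27 points. The K95R site of Igfbp7 (chr5:77836756), an insulin-like growth factor binding protein, had 5 of 11, 15 of 22 and 0 of 5 edited reads in wild type and 2 of 18, 18 of 22 and 13 of 21 in E861A. Livers of 1 genotype ranged from 0 to 68.2% and from 11.1 to 81.8%, so the like summed levels of 52.6 and 54.1% leave a wide interval of -17.9 to 20.9 points. The same gene has an R78G site (chr5:77836808) with 5 of 11 edited wild-type reads and 20 of 35 E861A reads.

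**Figure D3:**
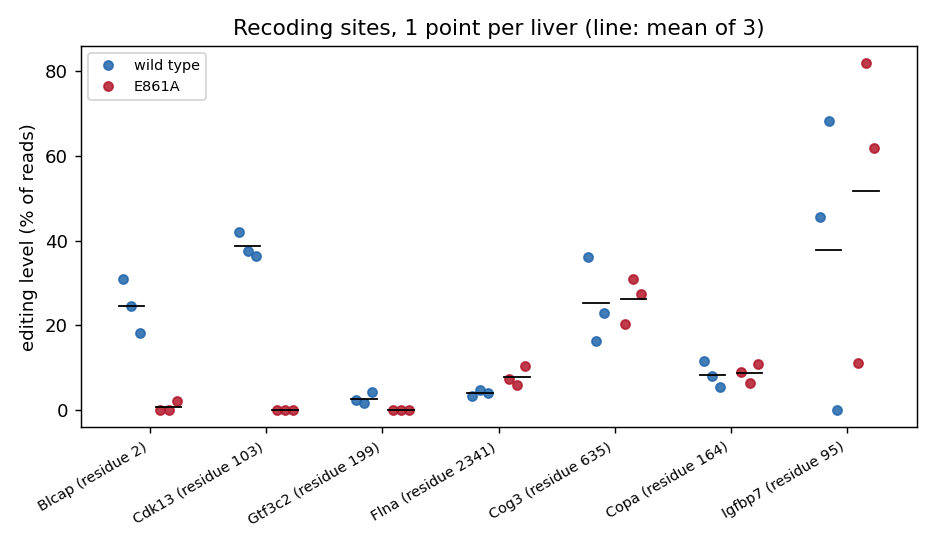
Editing level in each liver (y axis, percent of reads) at 7 recoding sites, named by gene and residue; blue points are wild-type livers, red points E861A livers, and lines the mean of 3. Blcap, Cdk13 and Gtf3c2 are at or close to 0 in E861A, all Flna points of E861A lie above those of wild type, and the Cog3, Copa and Igfbp7 points overlap.

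A list of 25 genes known for recoding was followed, and 11 of them held 37 of the 240 sites. The losses and gains among these 37 were Blcap Y2C, Flna Q2341R and 1 site not reported here, and no other site passed. Gria3, a glutamate receptor subunit, had 1 of 29 edited wild-type reads and 7 of 47 E861A reads at R769G (chrX:39007429), with an adjusted p of 0.428 in the Fisher's exact test. Son, a splicing cofactor, held 18 sites, none above 1.20% in either genotype. Its sites drew 36 edited reads of 16421 in wild type and 30 of 9911 in E861A. Zfp397, a zinc finger protein gene, held 17 sites with 29 of 4534 and 10 of 3554 edited reads. Arl6ip4, a nuclear splicing-related gene, held 10 sites at or below 0.194%, with 9 edited reads in each genotype. These low sites carry few edited reads each: 149 of the 240 sites had at most 3 edited reads in all 6 libraries together, and 78 had 1.

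Of the 5UTR sites, the 5 in Pa2g4, which encodes a growth-regulating RNA-binding protein, were among the most deeply covered of the 240. They had 11 edited of 29350 reads in wild type and 9 of 20691 in E861A. The 5UTR site with the highest wild-type level, listed under transcript uc009rvo.2 in Lrrfip2 (chr9:111095549), had 10 of 13 edited reads in wild type and 7 of 18 in E861A. It lies in a coding exon of GENCODE M1 and did not pass (Fisher's exact adjusted p = 0.248).

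By number, most losses were in noncoding RNA, at a share near that of all sites, and many came in clusters. D030028A08Rik, a noncoding RNA gene, holds 6 sites within 63 bases (chr11:96826276 to 96826338, in a noncoding exon), of which 4 fell. At chr11:96826286 edited reads were 27 of 75, 40 of 84 and 43 of 83 in wild type, and 0 of 66, 0 of 41 and 0 of 62 in E861A. All wild-type livers were above all mutant livers, at 45.5% against 0, where 3 edited reads would be 1.78% (Fisher's exact adjusted p = 8.24e-30). The adjoining base (chr11:96826287) had 76 of 240 edited reads in wild type and 0 of 168 in E861A. The other 2 that fell (chr11:96826276 and 96826278) were at 12.2 and 6.92% in wild type and also had no edited read in E861A. D030028A08Rik RNA also fell, from 60.6 ± 8.89 to 32.6 ± 0.472 CPM (SD, n = 3), a log2 fold change of -0.89 ± 0.14 (SE, edgeR adjusted p = 0.00784).

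Gm16736, listed by its Ensembl identifier ENSMUSG00000086673, holds 6 sites within 94 bases (chr17:46636805 to 46636898) that GENCODE M1 places in an intron of this noncoding gene. Of these, 5 fell. The site at chr17:46636874 had 8 of 19, 20 of 33 and 23 of 28 edited reads in wild type and 1 of 23, 0 of 17 and 0 of 17 in E861A. Its 63.8% was the highest wild-type level of any site that fell, against 1.75% in the mutant (Fisher's exact adjusted p = 6.58e-14). Just before it, chr17:46636872 had 24 of 79 edited reads in wild type and 3 of 57 in E861A, with overlapping livers (10.5% in wild type 2, 11.8% in E861A 19). Its adjusted p rose from 0.00179 to 0.160 without wild type 15. The remaining 3 that fell had 0 edited reads in E861A, at chr17:46636805, 46636813 and 46636898. The first and last of these passed no longer without any 1 of the mutant livers, with adjusted p of 0.0941 to 0.171 and 0.0599 to 0.116 in the Fisher's exact test, and the first also without wild type 15 (0.382).

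Transcript uc012aji.1, which overlaps a noncoding exon of Tulp4, holds 19 sites within 533 bases of chromosome 17, the largest group in 1 transcript. At 4 of them editing fell. Editing remained in every mutant liver at a pair of sites 4 bases apart. At chr17:6123078 edited reads were 9 of 20, 4 of 6 and 4 of 8 in wild type and 2 of 12, 1 of 8 and 2 of 16 in E861A. At chr17:6123082 they were 11 of 20, 5 of 7 and 5 of 8 in wild type and 3 of 10, 3 of 8 and 3 of 16 in E861A. The levels were 50 against 13.9% and 60 against 26.5%, with no overlap between genotypes at either site. The Fisher's exact adjusted p were 0.0131 and 0.0446, and leaving out E861A 19 raised them to 0.107 and 0.349. The call at chr17:6123082 was also lost without E861A 6 (0.102) or any 1 wild-type liver (0.0573 to 0.113). The other 2 that fell, at chr17:6122608 and 6123016, had 14 of 51 and 12 of 68 edited reads in wild type and 1 of 50 and 0 of 49 in E861A. They passed no longer without E861A 6 (0.0560 and 0.102), and the latter also without E861A 16 (0.0504) or 19 (0.0962). Over all 19 sites, 119 of 829 wild-type reads and 33 of 785 E861A reads were edited.

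**Figure D4:**
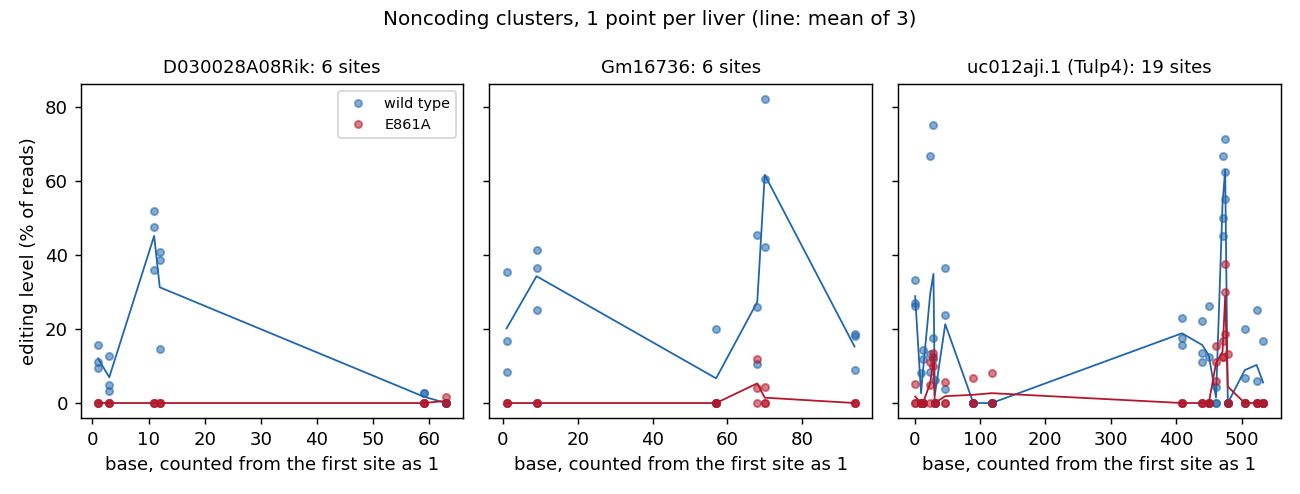
Editing level in each liver (y axis, percent of reads) along 3 noncoding clusters (x axis, bases counted from the first site); blue is wild type, red E861A, and lines join the mean of 3. D030028A08Rik lies at 0 in E861A at 5 of 6 sites, Gm16736 at 4 of 6, and uc012aji.1 keeps levels of 13.9 and 26.5% at 2 neighbouring sites.

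The site in Mir3061 lies in a microRNA hairpin that overlaps the 3' untranslated region of Ppp2ca, the catalytic subunit of protein phosphatase 2A. It is base 61 of the 91-base hairpin and base 3 of mmu-miR-3061-3p, which places it in the seed, the stretch that pairs with target RNAs. Edited reads were 3 of 10, 3 of 10 and 8 of 11 in wild type and 0 of 6, 0 of 5 and 0 of 14 in E861A. All wild-type livers were above all mutant livers, at 45.2% against 0 of 25 reads, where 3 edited reads would be 12% (Fisher's exact adjusted p = 0.000781). Without E861A 19 the adjusted p was 0.0528. These are reads of long RNA, so the level of the mature microRNA was not measured.

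The remaining noncoding losses were a pair of uc008btg.1 sites on chromosome 17 and 1 site in an intron of 9830144P21Rik. At chr17:29789957 edited reads were 7 of 71, 12 of 92 and 6 of 77 in wild type and 0 of 359 in E861A (Fisher's exact adjusted p = 1.35e-09). The other (chr17:29791213) had 23 of 267 and 0 of 290. The 9830144P21Rik site (chr2:129048980) had 8 of 17 edited reads in wild type and 0 of 16 in E861A, with an adjusted p of 0.0190, and of 0.0762 without wild type 17 and 0.0801 without E861A 6. Transcript uc007vsb.1, labelled ncRNA, held 9 sites that GENCODE M1 places in the 3' untranslated region of Deptor, with 21 of 213 edited reads in wild type and 0 of 203 in E861A, although none of the 9 passed singly.

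Among the 22 sites that fell, the base before the edited A was T at 13, C at 5, A at 4 and G at 0. Among the 218 others it was T at 57 and G at 42. Without Jtb and Rif1, which rest on 1 liver each as described below, 20 that fell remain, with T at 11 and G at 0. Many of the sites that fell are neighbours in clusters, so they are not independent. Of the 121 sites under 1% over both genotypes, 18.2% followed a T and 28.9% a G. For comparison, of 6157 adenosines within 50 bases of a site, 14.8% followed a T and 28.3% a G, and of the 422 3UTR sites that fell, 42.7% followed a T and 4.27% a G. Editing by ADAR1 is known to favour a U, written T here, and to disfavour a G at this position. Which enzyme edited the sites was not tested here.

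The letters CTTTAATC, searched on both strands, were found in 13 of the 240 windows of 29 bases (5.42%), in 7 of the 22 around sites that fell and in 107 of 1688 windows around 3UTR sites (6.34%). At 9 of the 13 the edited base is 1 of the adjoining A pair in this run. Those 7 windows are from D030028A08Rik (4 overlapping windows), uc008btg.1, 9830144P21Rik and uc012aji.1, and the letters were chosen after the windows were seen.

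Inverted copies, which could pair with the edited stretch, were sought as at least 50 aligned bases of at least 70% identity on the opposite strand within 3000 bases. They were found for 71 of 240 sites (29.6%), against 1149 of 1688 3UTR sites (68.1%). By label the share was 60 of 89 for ncRNA, 4 of 83 for Nonsyn and 0 of 25 for Syn. Of the 22 sites that fell, 15 had such a copy (68.2%), and of the 218 others 56 had one (25.7%). The share of 68.2% is near that of all ncRNA sites (67.4%). Those 15 lie in D030028A08Rik, Gm16736, uc012aji.1, uc008btg.1 and Blcap, and many of their windows overlap, so they are not independent. Of 3UTR sites, 78.9% of those that fell and 64.5% of the others had a copy. The 4 Nonsyn sites with a copy were the 3 of Blcap and the 1 of Gria3. For Blcap Y2C the copy spans 53 bases at 90.6% identity, 499 bases away. Cdk13, Gtf3c2 and Mir3061 had none by these settings. The Mir3061 site lies in a 91-base hairpin whose arms are each shorter than the 50 aligned bases required, so stems of this size can be missed. A site without a copy, also among Nonsyn and Syn sites, can thus still be paired.

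A few sites stood apart by liver. The Jtb site (chr3:90037905), labelled exonic and falling in a codon (K89E) of a gene for a small membrane protein, had 99 of 195 edited reads in wild type 15. It had 0 of 192 in wild type 2, 0 of 197 in wild type 17 and 0 of 646 in E861A. The Rif1 site (chr2:51972191, N2206D), in a gene of replication timing and DNA repair, had 75 of 126 edited reads in wild type 2 and none in the other 5 livers. Both are counted among the 22 that fell, with Fisher's exact adjusted p of 1.25e-32 and 5.52e-21, but each rests on 1 liver. Without that liver the level is 0 in both genotypes. At Slc39a7 N300S (chr17:34166853), in a zinc transporter gene, all 543 reads of wild type 2 and all 665 reads of E861A 6 were read as edited, and none of the reads of the other 4 livers was. DNA of the embryos was not analysed here, so editing and a difference in DNA cannot be told apart at these sites.

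Other sites were high in all livers. The 4 sites in Gm16589 and the 4 in Gm5578, which GENCODE M1 types as pseudogenes and the table lists by Ensembl identifier, were read as edited at 4692 of 4698 wild-type reads and 5199 of 5217 E861A reads. Of the 4 in Gm5578, 3 have no adenosine on the strand that the table gives. In all, 6 of the 240 sites are of this kind, among them the Gpc3 site (chrX:49625982) with 6.16, 6.49 and 4.48% in wild type and 5.70, 4.44 and 4.85% in E861A. Without Jtb, Rif1, Slc39a7 and the 8 pseudogene sites, an alternative chosen after seeing the data, 20 of 229 sites fell and 2 rose, and the mean changed by -4.01 points.

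**Figure D5:**
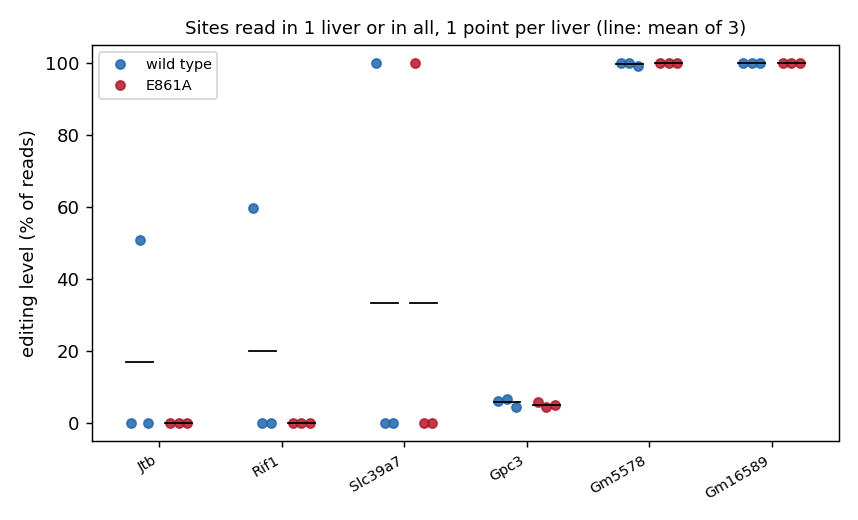
Percent of reads with G (y axis) in each liver at 6 sites, the first 3 read as edited in some livers only and the rest in all. Blue points are wild-type livers, red points E861A livers, and lines the mean of 3. Jtb and Rif1 are high in 1 wild-type liver each, Slc39a7 is at 100% in 1 liver of each genotype, and Gpc3, Gm5578 and Gm16589 are alike in all 6.

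The table marks each site in 2 fields, of which the first can read known, and the meaning of the marks is not given in the sources used here. Of 26 sites marked in both fields, 15 fell, with median levels of 25.0% in wild type and 1.75% in E861A. Of 196 marked in the first alone 4 fell, and their medians were 0.596 and 0.0953%. Of 18 marked in the other alone 3 fell, namely Jtb, Rif1 and 1 site of D030028A08Rik. Every site marked in the second field had an edited read in wild type, while 42 of the 196 had none. The marks thus go with detection in wild type, so the shares that fell are not a result about the marks. Of 3UTR sites, 214 of 280 marked in both fields fell. So did 127 of 1247 marked in the first alone and 81 of 161 marked in the other alone. The 196 had mean levels of 2.98% in wild type and 1.41% in E861A. The 1247 had 2.65 and 0.666%. The part of this detection in the 22 falls against 2 rises, and in the gap to the 3UTR sites, was not tested.

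RNA levels of the genes that hold the sites changed in small numbers, which moved with the settings. The count table holds 77 such genes, and 75 of them could be tested. In E861A 3 of these rose (4%) and 2 fell (2.67%) by the edgeR test, against 7.77% and 4.26% of all 16511 genes. Whether these shares differ was not tested. Their median log2 fold change was -0.07, beside 0.04 for all genes. Those that rose were AI607873, an interferon-inducible gene family member (log2 fold change 1.95 ± 0.18 SE, edgeR adjusted p = 0.000438), 4930447C04Rik (1.13 ± 0.19, 0.00913) and Igfbp7 (1.23 ± 0.26, 0.0203). Those that fell were D030028A08Rik, given above, and Rif1 (-0.51 ± 0.13, 0.0452). A fit that includes sex left 1 that rose and 0 that fell, against 3.21% and 0.236% of all genes. The number that fell was 6 when wild type 2 was dropped, with 1502 of all genes falling, and 1 when wild type 15 or 17 or E861A 6 or 16 was dropped, with 95 to 502 of all genes falling. The number that rose was 1 when wild type 17 or E861A 16 was dropped, with 555 and 515 of all genes rising.

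Of 12 genes for RNA- or DNA-editing enzymes and their relatives, 9 could be tested, 2 rose and 0 fell. Adar rose by a log2 fold change of 2.30 ± 0.19 (SE, edgeR adjusted p = 0.000260), and Apobec1, a cytidine deaminase, by 2.78 ± 0.23 (0.000225). Adarb1 was at 12.5, 9.02 and 8.95 CPM in wild type and 7.04, 9.85 and 10.3 CPM in E861A. The groups overlapped, with a log2 fold change of -0.16 ± 0.23 and an adjusted p of 0.721 in the edgeR test.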

How the data were processed

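Per the file headers, the deposited site table holds the number of covering reads (counts) and the editing level as a fraction for each site and library, the authors' p-value of an analysis of variance, and mean levels. Edited reads were level times coverage. The gene table holds raw counts deposited by the authors. Per the submitters' processing notes, tools included TopHat2 (2.0.8), Bowtie2 (2.1.0.0), SAMtools (0.1.19) and HTSeq, with build NCBIM37; filters behind the site list are not given in the sources used here. Sites were compared by Fisher's exact test on summed reads (SciPy 1.17.1), genes by edgeR 4.0.16 (filterByExpr, TMM, robust quasi-likelihood; CPM are counts per 1e6 TMM-scaled reads), both with Benjamini-Hochberg adjustment over all sites or genes, and library means by exact permutation. Both pipelines were run on simulated data. For the sites these had no spread between livers beyond counting, so they do not test the summed reads against that spread. Codons come from GENCODE M1, and the reference base matched NCBIM37 at 6012 of 6012 sites. Inverted copies were sought with BLAST 2.17.0. Replicates are separate livers. Intervals are at 95% (Wilson for levels, Newcombe for differences) and, like levels of 3 reads, cover counting error only; PCR copies are not marked, and neighbouring sites share reads.

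Named sites were those past the threshold, those in the recoding list, and per label those with the most wild-type reads or highest levels; those below the threshold were given by gene or range where many, 1 site past the threshold and 1 cell type marker are not reported here, and Deptor was named after its values were seen. Sites and lists were chosen with earlier results of these data known. Settings were changed 1 at a time: coverage minimum, test, adjustment, male livers only, weighting, each library left out, and for genes the scaling, the filter, sex and DESeq2 1.42.0.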

Additional observations from a re-analysis of the deposited data

How the results depend on the processing

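No paired analysis was possible because no replicate number occurs in both genotypes and litters are not named. The number of sites lower in E861A, 22 as reported, was 0 by the quasi-binomial test, 14 with a coverage minimum of 50, 9 with Bonferroni adjustment and 9 with at least the common dispersion. It was 20 to 21 with a minimum of 20 or 5, 15 in male livers, and 15 to 21 when each library was left out. The number of sites higher, 2, was 0 by the quasi-binomial test, 1 in male livers, 1 with Bonferroni adjustment, 1 with at least the common dispersion and 1 to 3 with a library left out (1 without wild type 15 or 17). The change in the mean over the 240 sites was -3.46 to -3.80 points with a library left out, -3.09 with a coverage minimum of 20, -2.03 with 50, -4.28 with 5, -3.10 with at least 5 reads in every library, and 1.04 points, with the opposite sign, when weighted by coverage. The gap to the 3UTR sites, 1.79 points as reported, was 1.25 to 2.76 with a library left out (2.76 without wild type 2), 2.81 with a minimum of 50 and 5.004 when weighted by coverage. Among sites that passed in neither direction, the difference was -2.59 points in male livers for Copa I164V and -9.96 for Cog3 I635V. With a library left out it was -0.916 to 2.20 points for Copa, -2.78 to 6.57 for Cog3, -14.2 to 22.8 for Igfbp7 K95R and -1.01 to 41.2 for Igfbp7 R78G. With sex as a covariate, the host genes that rose were 1 and those that fell 0; 4 fell with DESeq2, and 1 to 4 rose and 1 to 6 fell with a library left out. The cause of these differences was not tested. Depth differed between sites: 105 of the 240 had under 100 wild-type reads, and 12 of these fell, as did 10 of the 135 others.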
